A study of Mus musculus with 28 samples.

Results

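The nuclear genes for respiratory complexes II to V and their electron carrier were followed through RNA sequencing libraries of the hippocampal CA1 region of 3-month-old mice. Of 48709 gene identifiers in the deposited count files, 49 belonged to the set: 4 genes of complex II (symbols Sdha to Sdhd), 9 of complex III (symbols starting Uqcr, with Cyc1), the carrier gene Cycs, 18 of complex IV (Cox4 to Cox8) and 17 of complex V (Atp5). They were picked by gene symbol, a rule that uses no measured value but was drawn up with earlier results of these data known, and 7 symbols that matched the pattern but belong to annotated pseudogenes were left out, among them Cox6c2. A pair of the names stand for proteins that are not ordinary structural subunits: Cox7a2l is known as a factor for respiratory supercomplexes, and Atp5s is coupling factor B.

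The 28 libraries formed 3 groups. There were 9 libraries from CamkdeltaC transgenic mice given vorinostat, 9 from CamkdeltaC transgenic mice given vehicle and 10 from wildtype littermates given vehicle. Vorinostat (SAHA), an inhibitor of histone deacetylases, and its vehicle were supplied in the drinking water for 4 weeks from 2 months of age. The transgene encodes the deltaC form of a calcium and calmodulin dependent kinase, and mice that carry it in heart muscle are known to develop heart failure. A wildtype group on vorinostat was not analysed here, and both sexes were used. Whether each library is its own mouse is not stated in the labels, and p-values below gauge variation among libraries that may be technical.

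Complexes II to V complete the respiratory chain of the inner mitochondrial membrane. Complex II, succinate dehydrogenase, feeds electrons from the citric acid cycle into the quinone pool and is encoded in the nucleus only. Complex III passes electrons from quinol to cytochrome c, complex IV passes them on to oxygen, and complex V is the ATP synthase that uses the proton gradient. Complexes III, IV and V each also contain subunits made from mitochondrial DNA, so their assembly needs 2 genomes. Neurons of the hippocampus depend strongly on this chain for synaptic transmission.

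Promoters of these genes are known to hold sites for NRF1, for ETS factors such as GABP (also called NRF2), for YY1, SP1 and the estrogen-related receptors. Of the 49 genes, 37 had promoter sequence in RefSeq (GRCm38.p6), each window running from 250 bases before to 50 bases after the gene start, and 5 motifs were searched on both strands: CGCATGCG for NRF1, CCGGAAG for ETS, AAGATGGC for YY1, GGGCGG for SP1 and TCAAGGTCA for the estrogen-related receptor; none of the 5 contains another. The 3 promoters below are shown because they belong to genes whose values are described further on: 4 libraries that stood apart were the highest in Cycs and Sdhd, while 3 of those 4 were the lowest in Uqcrc1. Capitals mark motif matches: the NRF1 and SP1 motifs in Cycs, the NRF1 motif in Uqcrc1, and in Sdhd the ETS and estrogen-related receptor motifs on the opposite strand on either side of an SP1 motif.
Cycs, chr6:50566520-50566819, minus strand, GRCm38.p6: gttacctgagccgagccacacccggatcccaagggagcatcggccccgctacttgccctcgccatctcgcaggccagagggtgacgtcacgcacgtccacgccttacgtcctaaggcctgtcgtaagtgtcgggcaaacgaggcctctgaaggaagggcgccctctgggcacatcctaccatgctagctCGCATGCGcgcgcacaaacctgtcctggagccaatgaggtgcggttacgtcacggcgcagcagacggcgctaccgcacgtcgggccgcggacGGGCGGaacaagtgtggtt
Uqcrc1, chr9:108936398-108936697, plus strand, GRCm38.p6: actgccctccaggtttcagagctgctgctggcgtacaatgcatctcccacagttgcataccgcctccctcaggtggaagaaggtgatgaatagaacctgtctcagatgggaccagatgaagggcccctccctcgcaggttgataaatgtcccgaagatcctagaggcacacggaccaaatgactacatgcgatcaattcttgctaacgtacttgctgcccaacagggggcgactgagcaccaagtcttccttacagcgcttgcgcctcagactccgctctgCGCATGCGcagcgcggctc
Sdhd, chr9:50603800-50604099, minus strand, GRCm38.p6: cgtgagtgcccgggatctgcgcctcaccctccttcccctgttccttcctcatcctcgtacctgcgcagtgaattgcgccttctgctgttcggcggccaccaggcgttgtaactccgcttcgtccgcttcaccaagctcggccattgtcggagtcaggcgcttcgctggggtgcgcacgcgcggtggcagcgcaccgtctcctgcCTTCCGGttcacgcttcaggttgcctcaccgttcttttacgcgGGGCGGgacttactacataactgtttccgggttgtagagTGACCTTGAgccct
The NRF1 motif stood in the promoters of 8 of the 37 genes (21.6%), against 3.87% of the 12284 tested genes with a promoter in the same table. Those 8 genes were Uqcr11, Uqcrc1, Cycs, Cox6a1, Atp5g2, Atp5j, Atp5k and Atp5l. The ETS motif was found in 12 of 37 (32.4%, against 17.4% of tested genes), the YY1 motif in 3 of 37 (8.11%, against 4.64%) and the estrogen-related receptor motif in 2 of 37 (5.41%, against 0.366%). The SP1 motif was found in 15 of 37 (40.5%), a lower share than the 65.7% of tested genes. A match is a description of the letters in these windows, not a binding site.

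Library totals ran from 20230085 to 33191857 counted reads. CA1 identity was checked with Fibcd1, Wfs1, Pou3f1 and Mpped1, markers of CA1 pyramidal neurons: none was at 0, and their summed level was 790.2 to 1184 CPM (counts scaled to library size by edgeR's TMM method) in transgenic vorinostat libraries, 910.4 to 1348 in transgenic vehicle and 956.8 to 1297 in wildtype vehicle. Xist, which marks female tissue, exceeded 100 CPM in 5 of 9 transgenic vorinostat, 3 of 9 transgenic vehicle and 6 of 10 wildtype vehicle libraries. A set of 4 libraries stood apart: in transgenic vorinostat 6, 7 and 9 and in wildtype vehicle 2, genes of the mitochondrial genome took 6.39% to 7.48% of counts, against 2.84% to 4.11% in the other 24. Because 3 of these 4 belong to the vorinostat group, values without them are given for the main differences that involve vorinostat.

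Per unit of gene length, measured as TPM (transcript abundance scaled to exon length and depth), the complexes differed widely among their own members. With all annotated exons as the length, Cox8a had the highest mean of the 49 genes, 2083 TPM over the 28 libraries, followed by Cox6a1 with 1407 TPM and Atp5a1, the catalytic-head alpha subunit of ATP synthase, with 1384 TPM. Atp5b, the beta subunit that carries the catalytic sites, averaged 1313 TPM, with group means of 1328 ± 60.1 TPM in transgenic vorinostat, 1301 ± 46.8 TPM in transgenic vehicle and 1311 ± 60.1 TPM in wildtype vehicle libraries (SD). Atp5a1 had group means of 1389 ± 43.8, 1372 ± 52.3 and 1392 ± 59.6 TPM in the same groups, and with all annotated exons as the length the ranges of the 2 genes overlapped.

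Complex II had its highest level in Sdha, the flavin subunit that oxidises succinate, with 518 TPM. Sdhd, a membrane anchor, followed with 317 TPM, Sdhb, the iron-sulfur subunit, with 269 TPM, and Sdhc, the other membrane anchor, with 124 TPM. By group, Sdhd averaged 334 ± 50.7, 306 ± 10.3 and 312 ± 24.02 TPM in transgenic vorinostat, transgenic vehicle and wildtype vehicle libraries, and Sdhb averaged 284 ± 45.6, 258 ± 11.8 and 265 ± 27.99 TPM, so those neighbours overlapped in their ranges; with the longest transcript as the length instead of all annotated exons, Sdhb (369.3 TPM) stood above Sdhd (239.7 TPM). Sdha and Sdhc did not overlap with either: the 28 libraries lay between 469.6 and 567.6 TPM in Sdha and between 111 and 149 TPM in Sdhc.

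In complex III the small subunits Uqcr10 (516 TPM) and Uqcrh (471 TPM, the hinge protein that helps cytochrome c dock) led. They were followed by the core protein Uqcrc2 (401 TPM), the Rieske iron-sulfur protein Uqcrfs1 (371 TPM) and cytochrome c1, Cyc1 (340 TPM). Uqcrb, which binds near the quinone site, was the lowest with 93.7 TPM. With the longest transcript as the length, Uqcrh (550.2 TPM) stood above Uqcr10 (446.3 TPM), and Uqcrc1 moved up to place 4 of the 9 genes, having been at place 7. Cycs, cytochrome c itself, averaged 9.02 TPM, and 26.2% of the 50-base stretches of its transcripts also occur in transcripts of other genes, so reads may have been lost or split between copies in counting. The same holds for Atp5o (41.6%), Atp5g2 (38.4%), Uqcrb (25.5%), Cox7c (22.1%) and Atp5h (19.9%), whose levels are uncertain for that reason, whereas no stretch was shared for Sdha, Sdhb, Sdhd, Cyc1, Uqcrc1, Uqcrfs1, Cox6b1 or Cox8a. Only annotated transcripts were searched, so copies elsewhere in the genome would not be seen, also for the genes with no shared stretch. The sources used here do not say how reads that align to several places were treated.

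In complex IV the general isoforms far exceeded the paralogs known from muscle, testis or lung. Cox4i2, the lung isoform, stood at a median of 0.434%, 0.417% and 0.422% of the TPM of Cox4i1 in transgenic vorinostat, transgenic vehicle and wildtype vehicle libraries. Cox6a2, the heart and muscle isoform, stood at 0.524%, 0.457% and 0.471% of Cox6a1 in the same order of groups, and Cox7a1, likewise a muscle isoform, at 2.05%, 2.02% and 1.94% of Cox7a2. Cox6b2, a testis isoform, stood at 0.575%, 0.626% and 0.583% of Cox6b1. The ranges of the 3 groups overlapped in all 4 pairs. Cox8c, another testis isoform, had no count in any library, and Cox7b2 and Cox8b were too low for the test, which left 46 of the 49 genes among 17009 genes tested. Cox7b2 had 0.0470 to 0.421 CPM in transgenic vorinostat, 0.0420 to 0.487 in transgenic vehicle and 0.0880 to 0.564 in wildtype vehicle libraries.

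A trio of genes encodes the same mature c subunit of the ATP synthase rotor, and Atp5g3 had by far the highest counted level. Of the 50-base stretches, 11.1% in Atp5g1, 38.35% in Atp5g2 and 0% in Atp5g3 are shared with other genes. Reads of Atp5g1 and Atp5g2 may thus have been lost in counting. Atp5g1 stood at a median of 4.14%, 4.17% and 3.96% of the TPM of Atp5g3 in transgenic vorinostat, transgenic vehicle and wildtype vehicle libraries, and Atp5g2 at 1.14%, 1.23% and 1.07%. Atp5k (531 TPM) and Atp5c1 (484 TPM, the gamma subunit of the central stalk) came next after Atp5a1 and Atp5b within complex V, close to Atp5g3 with 480 TPM. Atp5l was the lowest of the complex at 3.11 TPM, with 6443 bases of annotated exons as its length. Of its 50-base stretches 9.99% are shared, with 642 other genes, so its level is uncertain too. These levels depend on the length used: with the longest transcript in place of all annotated exons, Atp5b averaged 2196 TPM and Atp5a1 1227 TPM, so the order of those 2 turned round, Atp5b stood above Cox8a (1772 TPM), and within complex V Atp5g3 with 917.8 TPM came next.

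**Figure D1:**
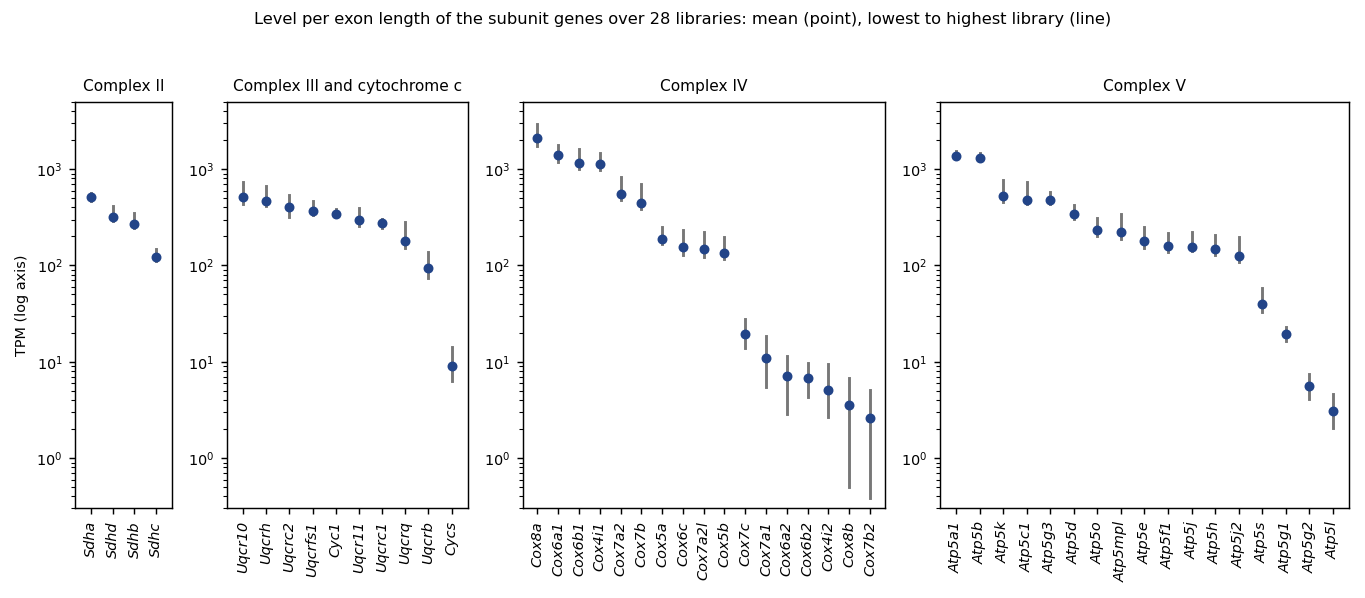
TPM of each gene on a log axis, by complex: points are means over the 28 libraries and lines run from the lowest to the highest library; Cox8c, at 0, is not drawn. Within complex IV the means run from 2083 TPM for Cox8a down to under 10 TPM for Cox4i2 and Cox6a2, while the lines of the well-counted genes are short.

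The first comparison asked whether the transgene changed these genes in CA1. Between transgenic and wildtype mice on vehicle, none of the 46 tested genes passed an adjusted p of 0.05 in edgeR's quasi-likelihood test, and neither did any other gene (0 of 17009 tested, 0% called; DESeq2 also called 0). At an unadjusted p under 0.05 there were 0 genes of the set, against 227 of all tested genes (1.33%). The median log2 fold change of the set was -0.024, with 7 positive and 39 negative values, beside 0.00013 over all tested genes, of which 50.1% were positive. By complex the medians were -0.018 for complex II, -0.028 for complex III, -0.022 for complex IV and -0.023 for complex V. The mean log2 CPM of the set had a pooled SD of 0.149 between libraries of a group, and the standard error of a single gene's fold change was 0.089 in the median.

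Fold changes of single genes ran from -0.22 to 0.079 on the log2 scale. Cycs had 4.42, 5.88 and 6.77 CPM as the lowest, median and highest value in transgenic vehicle libraries, against 4.56, 6.09 and 10.2 CPM in wildtype vehicle libraries. Apart from the highest wildtype library, wildtype vehicle 2, the groups covered the same range, and the log2 fold change was -0.14 (SE 0.111, edgeR adjusted p = 1). Cox6a2 had the lowest fold change of the set, -0.22 on the log2 scale (SE 0.188, adjusted p = 1), at means of 0.904 CPM in transgenic vehicle and 1.05 CPM in wildtype vehicle. The highest was that of Cox6b2, 0.079 (SE 0.137, adjusted p = 1), at 1.56 CPM in transgenic vehicle and 1.47 CPM in wildtype vehicle. With 1 library left out these values ran from -0.19 to -0.0488 for Cycs, from -0.3 to -0.124 for Cox6a2 and from 0.0259 to 0.135 for Cox6b2. Sdha, the most even gene of complex II, had a log2 fold change of -0.00081 (SE 0.0372), with 422.1 to 458.7 CPM in transgenic vehicle and 409.8 to 492.4 CPM in wildtype vehicle. Without wildtype vehicle 2 the median of the set was 0.0132, so its sign rested on that library.

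The second comparison asked what vorinostat changed in transgenic mice. No gene of the set and no other gene passed the adjusted threshold (0 of 17009, 0% called, with 1 gene called by DESeq2), and the smallest edgeR adjusted p was 0.345. Of the 46 tested genes, 41 had a higher and 5 a lower estimate in vorinostat libraries, at a median log2 fold change of 0.12, beside 0.0034 over all tested genes, of which 50.9% were positive. The complexes had medians of 0.068 (complex II, 3 of 4 positive), 0.12 (complex III, 7 of 9), 0.14 (complex IV, 15 of 15) and 0.12 (complex V, 15 of 17). In the set, 6 genes (13%) had an unadjusted p under 0.05, close to the 14.4% of all tested genes that did: Uqcrc2, Cox6c, Cox7b, Atp5c1, Atp5f1 and Atp5s.

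Cox7b, a small structural subunit of complex IV encoded on the X chromosome (chrX:106015700-106022450, GRCm38), had the highest estimate. Its lowest, median and highest values were 100.7, 102.3 and 175.0 CPM in transgenic vorinostat libraries and 100, 102.3 and 121.0 CPM in transgenic vehicle libraries. The medians were alike, the ranges overlapped, and only 3 of 9 vorinostat libraries exceeded the vehicle mean; these 3 were vorinostat 6, 7 and 9, at 157.5 to 175.0 CPM. The log2 fold change was 0.23 (SE 0.11, edgeR adjusted p = 0.345). Without the 4 libraries of high mitochondrial share it was -0.048 (SE 0.04). Cox6c, a small membrane subunit of the same complex, had 101.9, 106.5 and 169.7 CPM in transgenic vorinostat and 101.9, 105.0 and 124.8 CPM in transgenic vehicle libraries and a log2 fold change of 0.22 (SE 0.105, adjusted p = 0.345), and -0.042 (SE 0.0469) without the 4 libraries.

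In complex III, Uqcrc2 (chr7:120635176-120659524) had 191.5, 204.9 and 283.6 CPM in transgenic vorinostat libraries and 188.8, 201.1 and 209.1 CPM in transgenic vehicle libraries. Of the 9 vorinostat libraries 7 lay above the vehicle mean, but 6 of the 9 lay between 191.5 and 218.2 CPM, while vorinostat 6, 7 and 9 lay at 259.7 CPM or more. The log2 fold change was 0.17 (SE 0.0728, adjusted p = 0.345), and 0.0095 (SE 0.0389) without the 4 libraries.

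In complex V, Atp5s had the highest estimate, 0.22 on the log2 scale (SE 0.0894, adjusted p = 0.345), from 14.62, 17.11 and 24.48 CPM in transgenic vorinostat and 14.64, 15.58 and 17.12 CPM in transgenic vehicle libraries. Atp5l came next with 0.20 (SE 0.142, adjusted p = 0.443), at means of 4.42 CPM in transgenic vorinostat and 3.83 CPM in transgenic vehicle libraries. Atp5c1 had 169.8, 180.7 and 284.0 CPM in transgenic vorinostat and 170.2, 180.2 and 200.4 CPM in transgenic vehicle libraries (log2 fold change 0.18, SE 0.0849). Atp5f1, the b subunit of the peripheral stalk, had 119.3, 129.3 and 183.1 CPM in transgenic vorinostat and 118.9, 127.4 and 135.8 CPM in transgenic vehicle libraries (log2 fold change 0.18, SE 0.0813). In Atp5s, Atp5c1 and Atp5f1 the group medians lay closer than the highest values, and the groups overlapped. Without the 4 libraries the log2 fold changes were 0.049 for Atp5s, -0.085 for Atp5l, -0.023 for Atp5c1 and -0.0092 for Atp5f1.

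Complex II gave smaller values. Sdhb had 110.7, 115.9 and 158.8 CPM in transgenic vorinostat and 110.9, 118.6 and 134.5 CPM in transgenic vehicle libraries, a log2 fold change of 0.12 (SE 0.0741, adjusted p = 0.402). Its vorinostat median lay below the vehicle median although the fold change was positive. Sdhc had 73.4, 78.1 and 98.5 CPM in transgenic vorinostat and 79.0, 81.3 and 93.9 CPM in transgenic vehicle libraries, a log2 fold change of -0.048 (SE 0.0496, adjusted p = 0.602), and 2 of 9 vorinostat libraries exceeded the vehicle mean. Cycs had 4.95, 6.47 and 8.13 CPM in transgenic vorinostat libraries, of which 8 of 9 exceeded the transgenic vehicle mean of 5.82 CPM, at a log2 fold change of 0.19 (SE 0.114, adjusted p = 0.393). Without the 4 libraries Sdhb stood at -0.040 (SE 0.0385) and Cycs at 0.054 (SE 0.0941).

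**Figure D2:**
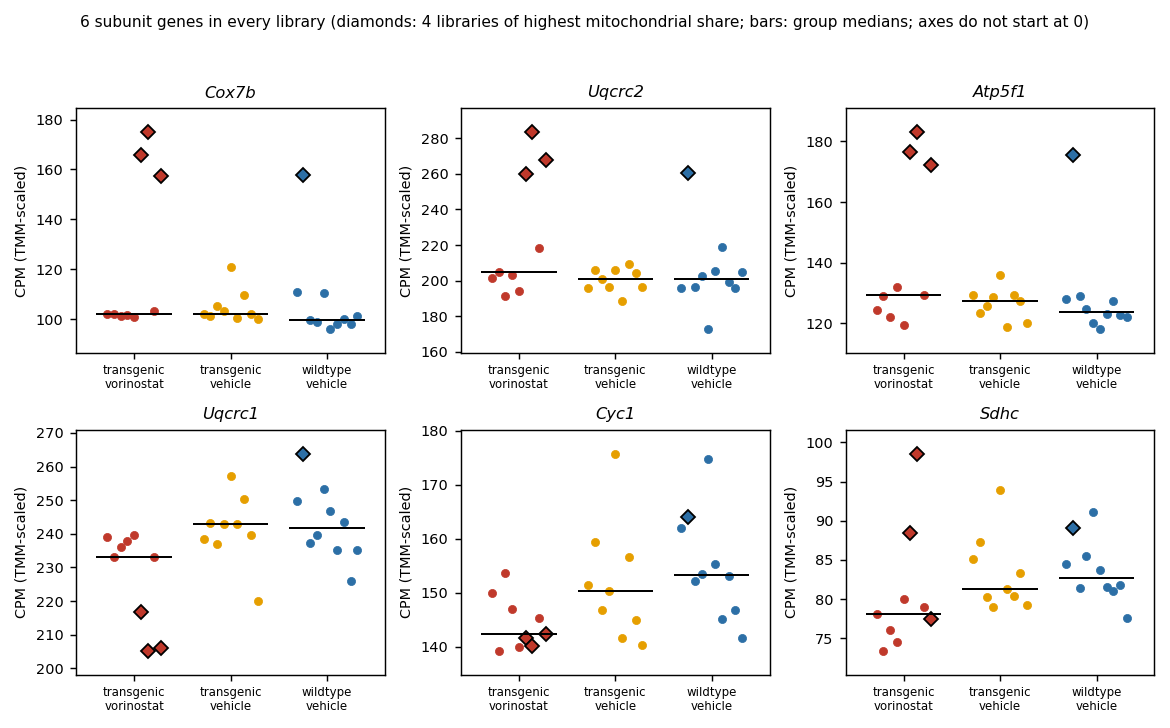
Scaled CPM of 6 genes in every library, grouped as transgenic vorinostat, transgenic vehicle and wildtype vehicle; diamonds are the 4 libraries of highest mitochondrial share, bars are group medians, and the axes do not start at 0. In Cox7b the diamonds lie between 157.5 and 175.0 CPM and the others between 96.04 and 121.0 CPM, while in Uqcrc1 the 3 vorinostat diamonds are the lowest and the wildtype diamond the highest of all 28.

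The third comparison set transgenic mice on vorinostat against wildtype mice on vehicle. Again no gene of the set and no other gene passed the adjusted threshold (0 of 17009, 0% called; DESeq2 also called 0), and the smallest edgeR adjusted p was 0.384. The median log2 fold change of the set was 0.082, with 38 positive and 8 negative values, beside 0.0065 over all tested genes, of which 51.7% were positive. The complexes had medians of 0.051 (II), 0.10 (III), 0.10 (IV) and 0.088 (V). In the set, 3 genes (6.52%) had an unadjusted p under 0.05, against 12.6% of all tested genes, and all 3 belong to complex III: Uqcrb with a positive estimate, and Cyc1 and Uqcrc1 with negative ones. All 3 comparisons share libraries pairwise and are not independent of each other.

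Uqcrb had 14.62, 16.25 and 24.48 CPM in transgenic vorinostat and 13.83, 15.25 and 20.83 CPM in wildtype vehicle libraries, a log2 fold change of 0.23 (SE 0.0938, edgeR adjusted p = 0.384). Of the 9 vorinostat libraries 6 lay above the wildtype mean and the ranges overlapped. Cyc1 (chr15:76343523-76346260) had 139.2, 142.3 and 153.6 CPM in transgenic vorinostat and 141.5, 153.3 and 174.8 CPM in wildtype vehicle libraries, a log2 fold change of -0.10 (SE 0.0436, adjusted p = 0.384). Uqcrc1 (chr9:108936633-108949623) had 205.2, 233.2 and 239.5 CPM in transgenic vorinostat and 225.9, 241.6 and 263.8 CPM in wildtype vehicle libraries, a log2 fold change of -0.095 (SE 0.0407, adjusted p = 0.384). In both genes 0 of 9 vorinostat libraries reached the wildtype mean, although the ranges overlapped. Without the 4 libraries the log2 fold changes were 0.062 for Uqcrb (SE 0.0584), -0.079 for Cyc1 (SE 0.0476) and -0.027 for Uqcrc1 (SE 0.0326).

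Uqcrc1 and Cyc1 also had negative estimates against transgenic vehicle. Uqcrc1 had 220.1, 242.8 and 257.1 CPM there, a log2 fold change of -0.085 (SE 0.0417, adjusted p = 0.346), and no vorinostat library exceeded the vehicle mean. Cyc1 had 140.3, 150.2 and 175.7 CPM, a log2 fold change of -0.073 (SE 0.0447, adjusted p = 0.392), with 1 of 9 above. The 2 core proteins of complex III, Uqcrc1 and Uqcrc2, had estimates of opposite sign in both vorinostat comparisons, with and without the 4 libraries. Without the 4 libraries, though, Uqcrc2 against transgenic vehicle and Uqcrc1 against wildtype vehicle, given above, were smaller than their standard errors. Their signs there are not settled. The other genes with negative estimates against transgenic vehicle were Sdhc, Atp5d (-0.054, SE 0.0602) and Atp5a1 (-0.0021, SE 0.0394).

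**Figure D3:**
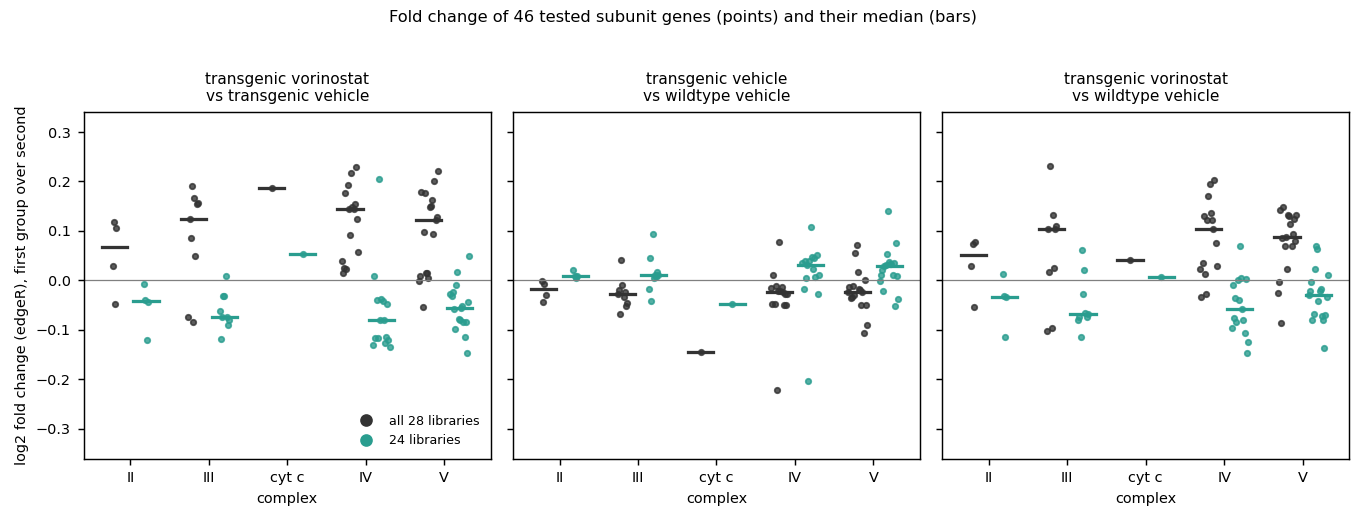
Log2 fold changes of the 46 tested genes (points) and their medians (bars), by complex and comparison, with all 28 libraries and with 24, leaving out the 4 of highest mitochondrial share. With all libraries 41 of 46 values are positive for transgenic vorinostat against transgenic vehicle, and without those libraries 6 of 46 are.

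The share of all counts assigned to the 49 genes separated single libraries more than it separated groups. Transgenic vorinostat libraries had 0.599%, 0.619% and 0.797% as lowest, median and highest value, transgenic vehicle libraries 0.591%, 0.625% and 0.739%, and wildtype vehicle libraries 0.602%, 0.621% and 0.788%. The medians lay within 0.591% to 0.672%, the range of 22 of the libraries, whereas the 4 libraries with the highest mitochondrial share had 0.771% to 0.797%. Transgenic vehicle 5 with 0.739% and wildtype vehicle 5 with 0.697% came next, and their mitochondrial shares, 3.91% and 3.68%, were like those of the rest. Each complex was high in the 4 libraries. Complex IV had 0.196% to 0.210% of counts there, against 0.129% to 0.186% in the other 24. Complex V had 0.370% to 0.385% against 0.299% to 0.362%, complex III 0.118% to 0.122% against 0.0907% to 0.114%, and complex II 0.0832% to 0.0847% against 0.0679% to 0.0771%. In bulk tissue, fewer cells of a type and less RNA per cell cannot be told apart.

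**Figure D4:**
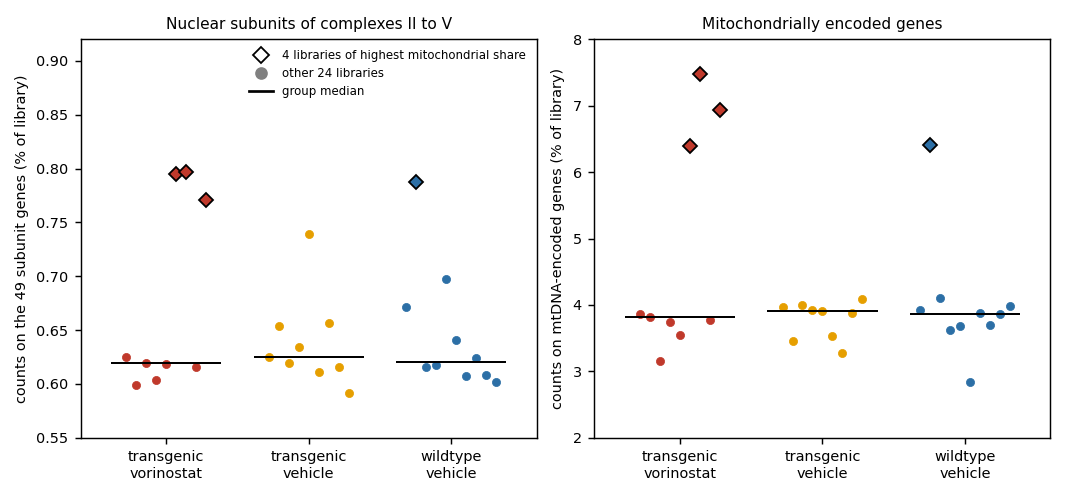
Percent of each library's counts on the 49 nuclear genes (left) and on mitochondrially encoded genes (right), for transgenic vorinostat, transgenic vehicle and wildtype vehicle libraries; bars are group medians and the axes do not start at 0. The 4 libraries (diamonds) at 6.39% to 7.48% mitochondrial counts have 0.771% to 0.797% on the nuclear genes, and transgenic vehicle 5 has 0.739% at 3.91%.

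In 25 of the 46 tested genes (54.35%), all 4 of these libraries lay above all other 24, as they did in 9.99% of all tested genes. In none of the 46 did all 4 lie below, against 11.2% of all tested genes. Every complex took part, with 2 of 4 genes in complex II, 6 of 9 in complex III, 7 of 15 in complex IV and 9 of 17 in complex V, as well as Cycs. Uqcrc2 had 259.7 to 283.6 CPM in the 4 libraries and 172.7 to 218.8 CPM in the other 24, and Sdhd had 97.08 to 103.3 CPM against 72.94 to 81.82 CPM. The genes outside this pattern included the 2 largest subunits of the ATP synthase head: Atp5a1 had 897 to 1011 CPM in the 4 libraries, overlapping the other 24 at 834.2 to 957.3 CPM, and Atp5b had 1184 to 1303 CPM against 1076 to 1207 CPM.

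The 4 libraries did not act as 1 block in every gene. In Uqcrc1, vorinostat 6, 7 and 9 had 205.2 to 216.9 CPM, below all other libraries, while wildtype vehicle 2 had 263.8 CPM, the highest of all. Uqcrc1 was the only 1 of the 46 tested genes in which those 3 libraries lay below the other 24. In Cyc1 the 3 had 140.1 to 142.3 CPM and wildtype vehicle 2 had 164.0 CPM, and in Atp5d they had 124.9 to 137.7 CPM against 147.6 CPM. In 13 of the 46 genes all 3 vorinostat libraries lay below wildtype vehicle 2, among them Sdha with 456.9 to 472.4 CPM against 492.4 CPM. The shares of all tested genes with either pattern were not computed, so these counts are not read as a trait of the set.

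Genes with short transcripts varied more across libraries. Over the 38 genes of the set with at least 10 CPM on average, the SD of log2 CPM across the 28 libraries had a Spearman rho of -0.515 with transcript length, as a description across genes that share libraries and are not independent; over the 10048 tested genes at that level it was 0.12. The least variable genes were Sdha (SD 0.058), Atp5a1 (0.059), Atp5b (0.063) and Uqcrc1 (0.083), and Cox7b (0.25) was among the most variable. The median SD was 0.189 in the set and 0.149 among all genes at that level. RNA integrity values are not in the labels, and the part of RNA quality in this pattern was not tested.

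**Figure D5:**
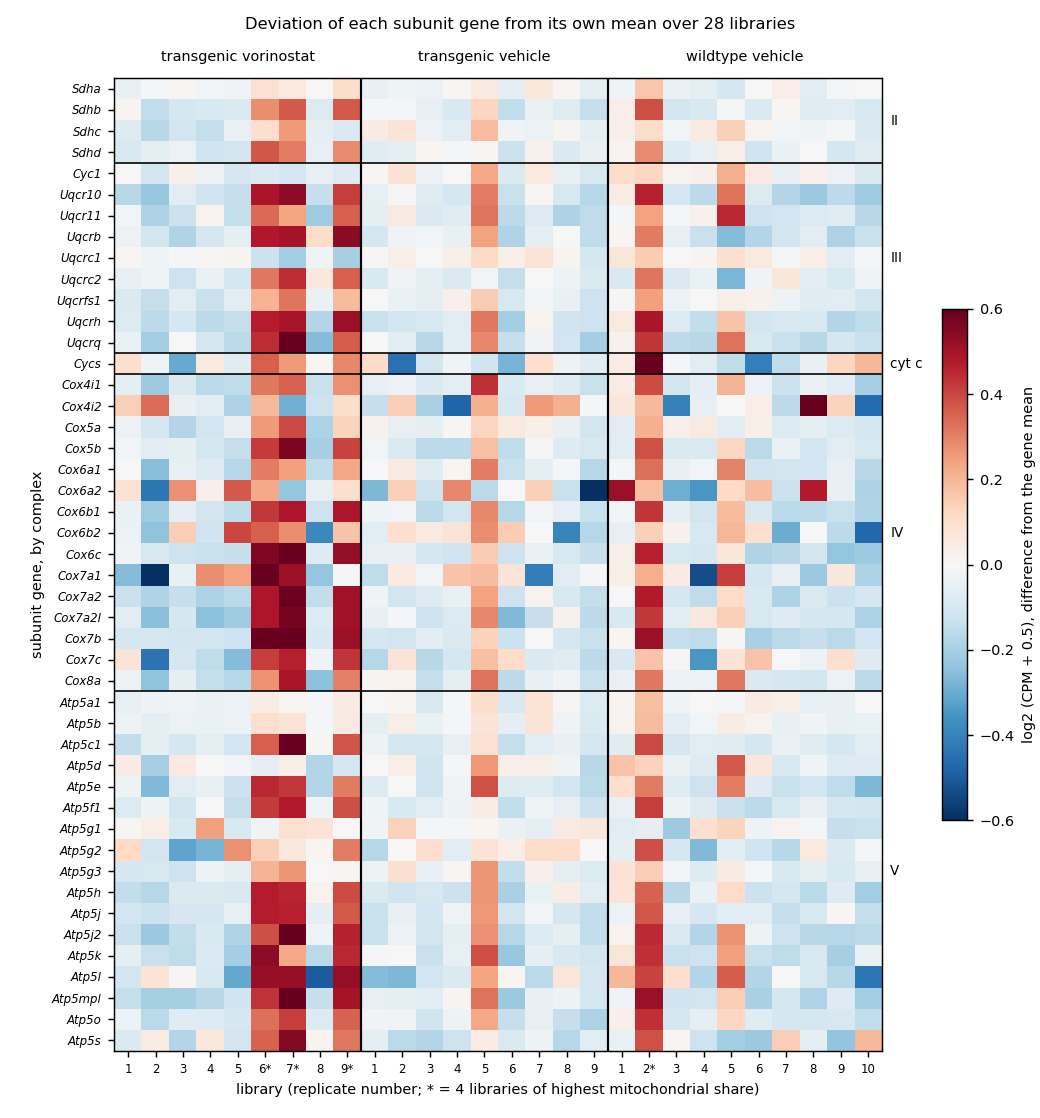
Log2(CPM + 0.5) of each tested gene in each library minus its mean over the 28 libraries, with genes by complex and libraries as transgenic vorinostat, transgenic vehicle and wildtype vehicle; colours stop at 0.6 in either direction. Vorinostat 6, 7 and 9 and wildtype vehicle 2 stand out as high in most genes, with transgenic vehicle 5 (mean deviation 0.19) next and Uqcrc1 as an exception in the 3 vorinostat libraries.

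Left without the 4 libraries, most estimates changed sign. For transgenic vorinostat against transgenic vehicle the median of the set was -0.0604, with 6 of 46 estimates positive, and for transgenic vorinostat against wildtype vehicle it was -0.0374, with 12 positive. For transgenic vehicle against wildtype vehicle the median was 0.0145, with 36 positive. By complex the values for vorinostat against vehicle in transgenic mice were -0.041 (II), -0.073 (III), -0.080 (IV) and -0.056 (V) over the same 46 genes. Cox7b2 passed the count filter in this smaller set of libraries, which makes 47 tested genes and a complex IV median of -0.097 with it. No gene of 17292 tested passed the adjusted edgeR threshold in any of the 3 comparisons (0% called). In the vorinostat comparison within transgenic mice, 5 of 47 tested genes of the set (10.6%) had an unadjusted p under 0.05, beside 3.84% of all tested genes. These 5 estimates were negative: Sdhc, Cox5a, Cox7a2, Cox7b2 and Atp5mpl. Over all libraries Cox7b2 averaged 0.184 CPM in transgenic vorinostat and 0.342 CPM in transgenic vehicle. It may have passed the filter through vehicle libraries, so its negative estimate may be partly built in. Over the 46 genes without Cox7b2, 4 had such a p. Sdhc had a log2 fold change of -0.12 (SE 0.0394, edgeR adjusted p = 0.966), Cox5a, a matrix-side subunit of complex IV, also had -0.12 (SE 0.0378), and the testis paralog Cox7b2 had -0.94 (SE 0.386) from under 1 CPM. Against wildtype vehicle 2 genes of the set, Sdhc (-0.11) and Cox7b2 (-0.90), had such a p, beside 4.17% of all tested genes. Over the 46 genes without Cox7b2, Sdhc alone had one. For transgenic vehicle against wildtype vehicle 0 had one, beside 2.38%. With all libraries kept and the mitochondrial share as a covariate, 1 of 46 genes of the set, Sdhc (-0.092), had an unadjusted p under 0.05 for vorinostat against vehicle in transgenic mice (2.17%, beside 4.24% of all tested genes). With that covariate 3 of 46 had one against wildtype vehicle (6.52%, beside 7.36%), namely Sdhc, Cyc1 and Uqcrc1, and 0 had one for transgenic vehicle against wildtype vehicle, beside 2.03%.

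Of the mitochondrially encoded partners, 2 could be tested. mt-Co1, the catalytic subunit of complex IV, averaged 11350 CPM in transgenic vorinostat, 9313 CPM in transgenic vehicle and 9802 CPM in wildtype vehicle libraries, a log2 fold change of 0.29 for vorinostat against vehicle in transgenic mice (SE 0.133, edgeR adjusted p = 0.345). mt-Cytb, the cytochrome b of complex III, averaged 8970, 7210 and 7662 CPM in the same groups, with 0.32 (SE 0.151, adjusted p = 0.345). The medians lay closer than the means, at 9481, 9455 and 9568 CPM for mt-Co1 and 7259, 7359 and 7346 CPM for mt-Cytb, and the vorinostat means include the 3 vorinostat libraries picked out above for their mitochondrial share. The log2 fold changes without those libraries and wildtype vehicle 2 were -0.041 for mt-Co1 (SE 0.0609) and -0.066 for mt-Cytb (SE 0.067). Transcripts of other annotated genes share 51.1% of the 50-base stretches of mt-Co1 and 0% of those of mt-Cytb. mt-Co2, mt-Co3 and mt-Atp8 are listed at 0 in all libraries, so no level is given for them. Their stretches shared with other genes were 100% for mt-Co2, 99.86% for mt-Co3 and 0% for mt-Atp8. mt-Atp6, with 99.53% shared, was not among the tested genes. How shared reads were counted is not stated, so the mitochondrial share of counts may leave out reads of these genes.

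Assembly factors were described from lists drawn up by function. Of the 4 tested factors of complex II, 3 had a positive estimate for vorinostat against vehicle in transgenic mice (median log2 fold change 0.10), as did 6 of 6 for complex III (0.061), 15 of 22 for complex IV (0.048) and 3 of 5 for complex V (0.010). None passed the adjusted threshold, and 4 of the 22 factors of complex IV had an unadjusted p under 0.05, beside 14.4% of all tested genes: Cox11, Cox17, Coa5 and Higd1a. Leaving out the 4 libraries gave medians of -0.047 for complex II, -0.014 for III, -0.052 for IV and -0.040 for V. Among the 4, Cox17, the copper chaperone of complex IV, averaged 12.4 CPM in transgenic vorinostat and 11.2 CPM in transgenic vehicle (log2 fold change 0.14, SE 0.0667, edgeR adjusted p = 0.345), and Cox11, which inserts copper into the Co1 subunit, averaged 4.03 and 4.57 CPM (-0.18, SE 0.088, adjusted p = 0.345); without the 4 libraries Cox17 stood at 0.029 and Cox11 at -0.18. Sco2 and Pet117 were listed at 0 in every library. In the transgenic vehicle against wildtype vehicle comparison the medians of the 4 lists lay between -0.020 and 0.0082, and 0 of their genes had an unadjusted p under 0.05, beside 1.33% of all tested genes.

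For vorinostat against wildtype vehicle, the assembly lists had medians of 0.069 for complex II, 0.040 for complex III, 0.031 for complex IV and 0.025 for complex V, with no adjusted call. Cox17 (log2 fold change 0.17, SE 0.0651) and Tmem70, which promotes ATP synthase assembly (0.16, SE 0.0702), had positive estimates, both at an edgeR adjusted p of 0.384. Tmem70 averaged 28.9 CPM in transgenic vorinostat and 25.8 CPM in wildtype vehicle libraries. Cox18, which moves the Co2 subunit across the membrane, had a negative one (-0.098, SE 0.0382, adjusted p = 0.384). The lists had medians without the 4 libraries of -0.047, -0.038, -0.025 and -0.034, and the estimates were 0.078 for Cox17, 0.021 for Tmem70 and -0.083 for Cox18.

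Transcription factors known to drive respiratory genes had a median log2 fold change of -0.0029 for vorinostat against vehicle in transgenic mice, with 6 positive and 6 negative of 12, from -0.18 for Pprc1 (SE 0.117, adjusted p = 0.419) to 0.14. Gabpa, the ETS factor that binds the motif shown above, averaged 28.3 CPM in transgenic vorinostat and 25.7 CPM in transgenic vehicle libraries (0.14, SE 0.0633, edgeR adjusted p = 0.345), and its estimate without the 4 libraries was 0.041 (SE 0.0539). Tfam, which packages and transcribes mitochondrial DNA, averaged 37.0 CPM in transgenic vorinostat and 33.5 CPM in wildtype vehicle libraries (0.14, SE 0.0639, adjusted p = 0.384), while its medians were 33.7 and 33.7 CPM and its estimate without the 4 libraries was 0.021 (SE 0.0397). Without them the list had a median of 0.025 against transgenic vehicle, with 8 of 12 positive. No factor of the list passed the adjusted threshold in any comparison. The 36 nuclear subunits of complex I had a median of 0.13 for vorinostat against vehicle in transgenic mice, with 34 positive. Of the 36, 23 had all 4 libraries of highest mitochondrial share above the other 24, beside 9.99% of all tested genes. Without those libraries the complex I median was -0.056, with 3 positive. These counts were near those of complexes II to V, and no test of a difference between the complexes was made.

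Among the lists of cell type markers, only the summed level of red blood cell markers separated the 4 libraries from the other 24. The ranges of all other sums overlapped. The red blood cell markers (5 genes, none at 0 throughout) summed to 77.4 to 135 CPM in the 4 libraries and 17.95 to 57.1 CPM in the other 24. By group they summed to 36.7 to 135 CPM in transgenic vorinostat, 17.95 to 46.1 in transgenic vehicle and 21.1 to 106 in wildtype vehicle, and all 4 tested genes had a positive estimate in both vorinostat comparisons, with medians of 0.85 against transgenic vehicle and 0.89 against wildtype vehicle and no adjusted call. With all libraries, each of the 4 had an unadjusted p under 0.05 in both vorinostat comparisons, beside 14.4% and 12.6% of all tested genes. The 4 tested blood genes also had positive estimates without the 4 libraries, with medians of 0.40 and 0.76. Without those libraries all 4 were positive for transgenic vehicle against wildtype vehicle as well, at a median of 0.36, so higher estimates were not particular to vorinostat. CA1 pyramidal markers summed to 790.2 to 1052 CPM in the 4 libraries and 910.4 to 1348 CPM in the other 24, and the 4 markers named above had negative estimates in both vorinostat comparisons. When the 4 libraries were left out, 2 of these markers were positive against transgenic vehicle (median -0.0024) and 1 was positive against wildtype vehicle (-0.022). Astrocyte markers (5 genes, none at 0) summed to 1518 to 2006 CPM in the 4 libraries and 1301 to 1593 CPM in the other 24, and endothelial markers (5 genes, none at 0) to 75.8 to 126 CPM and 108 to 153 CPM. Microglia markers (5 genes, none at 0) summed to 254.3 to 301 CPM and 206 to 282.3 CPM. Members of a list did not all move together: all 4 libraries lay above the other 24 in 3 of the 4 tested blood genes, 1 of 5 astrocyte, 1 of 5 microglia and 1 of 5 endothelial genes, and below them in 2 of 5 endothelial genes. Over all tested genes, 9.99% had all 4 above the other 24 and 11.2% had all 4 below. Counts of 1 gene in a list this short cannot be told apart from those shares. Oligodendrocyte markers summed to 4099 to 7139 CPM in the 4 libraries and 3252 to 7366 CPM in the other 24, with 0 of 6 genes above and 0 below. Pericyte and smooth muscle markers summed to 149.6 to 192.9 CPM and 132.7 to 203.4 CPM, with 1 of 6 genes above and 1 below. Inhibitory neuron markers summed to 846.9 to 940.9 CPM and 846.1 to 974 CPM, with 2 of 6 above and 1 below, and in choroid plexus markers 0 of 3 tested genes lay above or below. Dentate granule markers (5 genes, none at 0), from the neighbouring field, summed to 25.7 to 71.0 CPM in transgenic vorinostat, 36.7 to 90.4 in transgenic vehicle and 30.6 to 101 in wildtype vehicle. Against transgenic vehicle all 5 had negative estimates in vorinostat libraries, at a median log2 fold change of -0.37 and a lowest value of -1.03 for Dsp. Of these 5, 2 had an unadjusted p under 0.05, beside 14.4% of all tested genes, and none had an adjusted call. The 5 estimates were also negative without the 4 libraries, at a median of -0.44. With all libraries the median SE was 0.216 in this list and 0.0917 in the respiratory set, so their sizes are not compared. For transgenic vehicle against wildtype vehicle 4 of 5 dentate estimates were positive (median 0.25), and for transgenic vorinostat against wildtype vehicle 1 of 5 was (median -0.25). The dentate sums had medians of 39.3, 57.1 and 37.6 CPM in transgenic vorinostat, transgenic vehicle and wildtype vehicle. Striated muscle markers (7 genes, none at 0), relevant to the muscle isoforms above, summed to 19.6 to 28.8 CPM, 20.5 to 29.8 CPM and 20.1 to 31.7 CPM in those groups. The part of these cells in the values of the respiratory genes was not tested.

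The authors' deposited table of coexpression modules covered 48 of the 49 genes. In that table, 18 of the 48 genes (37.5%) belonged to the yellow module, which held 6.195% of all its genes, and 17 (35.4%) to the black module, which held 10.7%. In the same table Sdhc, Cyc1, Atp5a1, Atp5b and Atp5d belonged to the darkred module, which held 10.4% of the set and 4.82% of all genes, Uqcrc1 and Atp5g1 to cyan, Cycs and Atp5s to purple, and Sdha to lightcyan. The modules were made by the authors from these libraries and are not independent of the counts.

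In the authors' deposited table of values adjusted by a mixed linear model, whose terms and log base the sources used here do not state, the 4 libraries had mean deviations of the set of 0.0558 to 0.265, against -0.218 to 0.12 in the other 24. Vorinostat 6 and 7 (0.265 and 0.199) lay above all of those 24, whereas wildtype vehicle 2 (0.0945) and vorinostat 9 (0.0558) lay within their range. The limma test did not count what the mixed linear model had already fitted, so its p-values may be too small. Tested with limma, those adjusted values gave 5 genes of the set with an adjusted p under 0.05 for transgenic vorinostat against wildtype vehicle (10.4% of 48), beside 2645 of all 18014 genes (14.7%). They were Uqcrb, Uqcrc2, Cox7b and Atp5f1 with positive differences and Cox7b2 with a negative one. For Uqcrb the difference was 0.247 (adjusted p = 0.0131) and for Uqcrc2 it was 0.158 (adjusted p = 0.0361), in the log units of that table. For transgenic vorinostat against transgenic vehicle 0 genes of the set passed, beside 0.205% of all 18014, and for transgenic vehicle against wildtype vehicle 0 passed, beside 2.1%. The adjusted values gave a median of the set of 0.046 for transgenic vehicle against wildtype vehicle, with 41 of 48 differences positive, where the counts gave -0.024 and 39 of 46 negative; over all genes of that table the median was 0.019, with 10796 of 18014 positive. For transgenic vorinostat against transgenic vehicle they gave 0.040, with 34 of 48 positive, where the counts gave 0.12, and 9481 of 18014 genes were positive at a median of 0.0071. For transgenic vorinostat against wildtype vehicle they gave 0.097, with 41 of 48 positive, and 10537 of 18014 genes were positive at a median of 0.026.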

How the data were processed

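RNA of microdissected CA1 tissue was sequenced after unstranded polyA selection with 50-base single reads, per the labels' protocols. The deposited gene counts were made by the authors with STAR 2.5.2b and featureCounts of Subread 1.5.1 on mm10 after FastQC 0.11.5, per the submitters' processing notes; for the annotation release and the strand and multi-mapping settings, nothing is stated in the labels. The other deposited tables hold log2-scale values adjusted by a mixed linear model (read as log2, base not stated) and coexpression module names, with membership scores and their p-values, per the file headers; the p-values were not used.

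Counts of 28 libraries were fitted together with edgeR 4.0.16 (R 4.3.3): genes kept by filterByExpr (minimum count 10, minimum total 15), TMM scaling, robust quasi-likelihood test, Benjamini-Hochberg adjustment over 17009 genes, threshold 0.05. limma 3.58.1 was used for the adjusted values and DESeq2 1.42.0 as an alternative. The test was checked on simulated counts, drawn independently with the same dispersion for all genes and no shift shared by libraries. That check does not show how the test behaves with the 4 libraries that stood apart. TPM used the union of annotated exons (GENCODE vM21, GRCm38); of the gene identifiers 99.3% had a symbol there. The correlations of libraries with the same replicate number in their titles ran from -0.39 to 0.473, and no block was used. Those numbers differ from the ones in the authors' own library codes. Neither this check nor the replicate block could therefore show pairing by those codes. No counting intervals were computed; errors are the spread over libraries where given. The genes and lists were chosen with earlier results of these data known. Fold changes were named for the highest and lowest gene of each complex and the 5 smallest p in each comparison; other names were chosen after their values were seen. Alternatives were RLE or total-count scaling, no filter, DESeq2, the compared groups alone, covariates for mitochondrial share or Xist, leaving out libraries, the replicate block and the adjusted values. Values of the gene lists without the 4 libraries were added after seeing the data. 1 marker of the planned CA1 list is not reported here, for a reason unrelated to its values, and the CA1 sums and counts leave it out.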

Additional observations from a re-analysis of the deposited data

Results flagged for a closer look

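Within groups, 27 values stood farther from the nearest library than Dixon's 95% limit allows, out of 84 group checks over named genes and shares of counts. Chance flags about 1 in 20 groups, and these checks share libraries. All were the highest of their group. Wildtype vehicle 2 had 0.788% of counts on the 49 genes and 6.41% on mitochondrially encoded genes, with 0.0840% on complex II and 0.385% on complex V. In the same library the scaled CPM stood apart for Sdha (492.4), Sdhb (160.9), Sdhd (97.08), Uqcrb (20.83), Uqcrc2 (260.8), Cycs (10.19), Cox6c (155.2), Cox7b (157.6), Atp5c1 (247.3), Atp5f1 (175.6) and Atp5g2 (2.648). Transgenic vehicle 5 had 0.739% on the 49 genes, with 0.114% on complex III and 0.186% on complex IV, and stood apart in CPM for Sdhb (134.5), Uqcrb (19.79), Uqcr11 (48.37), Cox6c (124.8), Cox7b (121), Atp5c1 (200.4) and Atp5d (161.1). Wildtype vehicle 5 stood apart for Atp5d (173.3 CPM) and wildtype vehicle 8 for Cox4i2 (1.543 CPM). No such value came from the vorinostat group, where 3 of 9 libraries were high together, which this rule for a single library does not pick up.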

How the results depend on the processing

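No gene of the set was called in any comparison under RLE or total-count scaling, no filter, DESeq2, the 2 groups alone, either covariate, the replicate block or any single library left out; the authors' adjusted values gave 5 for transgenic vorinostat against wildtype vehicle. Over all genes those adjusted values called 379 for transgenic vehicle against wildtype vehicle, 37 for transgenic vorinostat against transgenic vehicle and 2645 for transgenic vorinostat against wildtype vehicle, against 0 each from the counts, DESeq2 called 1 in the second comparison and the replicate block 1 in the third. The limma p-values behind the calls from adjusted values may be too small, as described above. Leaving out single libraries gave 0 to 1 called genes in the second comparison (1 without vorinostat 3) and 0 to 3 in the third (3 without wildtype vehicle 2, 1 without wildtype vehicle 5). The median log2 fold change of the set ran from -0.0629 to 0.0132, 0.066 to 0.162 and 0.0296 to 0.137 with 1 library left out. For the second comparison it was -0.0604 without the 4 libraries of highest mitochondrial share and -0.0274 without transgenic vehicle 5 and wildtype vehicle 5 as well, an alternative chosen after seeing the data. With the replicate block the medians were -0.036, 0.112 and 0.0663.

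Signs were followed only for genes picked by rule in each comparison: those highest or lowest in a complex or with the smallest p. Among those genes, signs turned as follows. In transgenic vehicle against wildtype vehicle, Sdha became 0.00645 with mitochondrial share as covariate, 0.0214 without the 4 libraries, 0.00484 without all 6, 0.00116 with the replicate block and 0.0612 in the adjusted values; Sdhb became 0.00836 without the 4 and 0.0355 in the adjusted values, in which Uqcr11 became 0.0126, Cox6a2 0.0575 and Atp5s 0.0295. With 1 library left out, Sdha ran from -0.0107 to 0.0198, Sdhb from -0.0691 to 0.00674 and Uqcrb from -0.000753 to 0.0916. In transgenic vorinostat against transgenic vehicle without the 4 libraries, Sdhb became -0.0401, Uqcrb -0.0319, Cox7b -0.0478, Atp5f1 -0.00923 and Atp5c1 -0.023. In that comparison 41 of 46 genes of the set were positive with all libraries and 6 of 46 without the 4. Many genes outside the rule thus turned too, among them Cox6c and Atp5l, given above. Without all 6 libraries, Sdhb became -0.016, Cox7b -0.0197 and Atp5c1 -0.00251, and with the covariate Sdhb became -0.00626. Cox4i2 ran from -0.0724 to 0.0647 with 1 library left out. In transgenic vorinostat against wildtype vehicle, Sdhd became -0.00559 with the covariate, -0.0343 without the 4 and -0.0227 without all 6, Cycs became -0.0664 with the covariate and -0.00823 without all 6, and with 1 library left out Cycs ran from -0.00368 to 0.137 and Cox4i2 from -0.109 to 0.116. The cause was not tested. The median standard error of 0.089 limits what these libraries can show.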
